A study of Saccharomyces cerevisiae with 6 samples.

Results

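The comparison of the mot1-14 strain with wild-type MOT1 yeast was made on 2 two-colour arrays, chosen by their labels, out of the 6 arrays of the series. Both arrays hybridised mot1-14 RNA against RNA of the wild-type strain, with the mutant in the red dye (Cy5) on array 1 and in the green dye (Cy3) on array 2. The other 4 arrays set 2 further strains, TBP-Y185C and TBP-F207L, against the same wild type, and they enter here as the nearest strains for comparison. All strains were made from Saccharomyces cerevisiae AY138 and carried plasmids after selection on FOA, a compound that kills cells keeping a URA3 plasmid. The wild type held pAV20, the mot1-14 strain pMOT244, and the remaining strains pTBP-Y185C or pTBP-F207L, which the series calls bypass strains. Cells were grown in rich medium (YPD) at 30 °C to an OD600 of 1.0, and the labels describe both a poly(A) purification from 1 mg of total RNA and an amplification from 500 ng of total RNA. Nothing in the labels tells whether both arrays drew on separate cultures. The p-values therefore cover only the spread between arrays, which may be technical, and the wild type's own spread is left out.

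Mot1 is an essential ATPase of the Snf2 family that binds the TATA-binding protein (TBP, gene SPT15) and removes it from DNA. Mutations of MOT1 are known to raise the transcription of some genes and to lower that of others, and TBP released from some promoters is thought to serve others. Many genes with a TATA box encode stress and nutrient functions, whereas most genes of growth and protein synthesis are known to recruit TBP through TFIID. The levels below are log2 ratios of mot1-14 over wild type after normalization within each array, where 1 is a doubling. A gene is said to have risen or fallen where limma's test across all genes gave a Benjamini-Hochberg adjusted p under 0.05.

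Of 6127 genes tested, 4465 passed (72.9%): 2323 rose (37.9%) and 2142 fell (35.0%). The scanner's own background-subtracted log ratios turned that balance, with 2094 that rose and 2261 that fell, and the deposited p-values were under 0.05 on both arrays for 1994 genes. Among the genes that passed, the median absolute log2 ratio was only 0.33. A change of 2-fold or more was called for 276 genes that rose (4.50%) and 36 that fell (0.588%), and with the scanner's log ratios the split was 404 to 115. Those ratios moved 11 named genes by more than 1.5-fold, among them GPM2 (3.09 in place of 2.47), INO1 (2.65 in place of 1.21) and GLG1 (1.24 in place of 0.65), each further from 0. The imbalance grew with size: 81 of 84 genes past 3-fold and all 34 past 4-fold were rises. On the dye-swapped arrays 4975 genes (81.2%) had the same sign, as did all 312 genes past 2-fold, and 249 of those were past 2-fold on each array. Loess normalization centres each array, so a shift shared by all genes cannot be seen. Array 1 had more spots marked as outliers, 3.22% against 0.341%. Each of the 3 slides held the pair of arrays of a single strain, so slide and strain cannot be told apart.

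**Figure D1:**
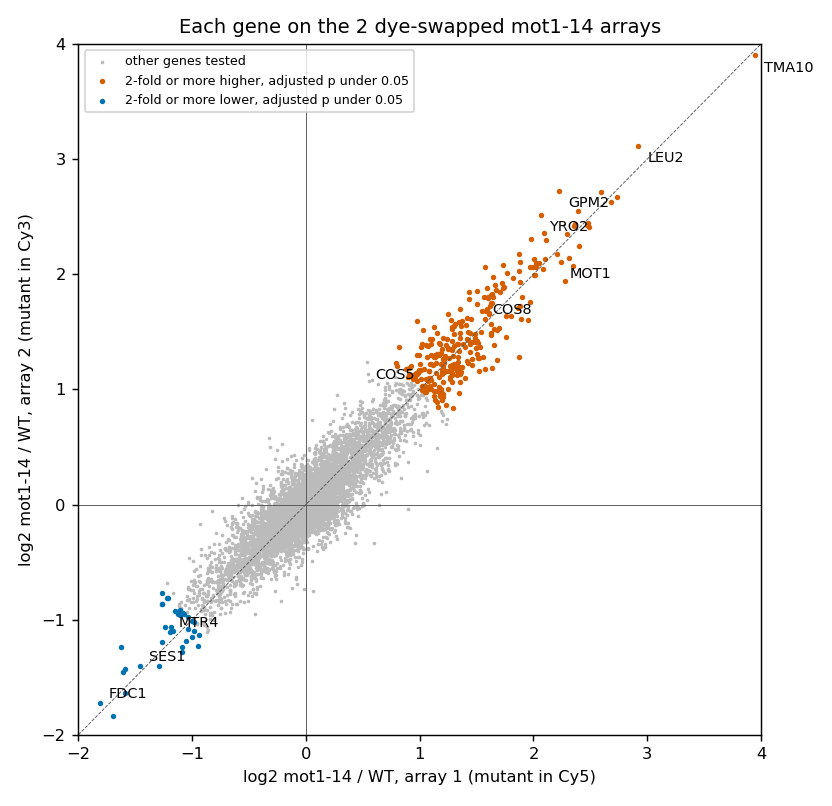
Each point is 1 of 6127 genes, with its log2 ratio of mot1-14 over wild type on array 1 (horizontal) and array 2 (vertical). Orange points rose and blue points fell by 2-fold or more, the dashed line marks equal values, and all 312 coloured points have the same sign on both arrays.

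The log2 ratio also went with gene length, a property chosen for study after the values were seen. Genes with a length in the RefSeq annotation were split into 5 classes of about equal size. The class of the shortest genes (1133 genes of 78 to 654 bases) had a median of 0.20, and 61.3% rose while 12.8% fell. The class of the longest genes (1128 genes of 2106 to 14733 bases) had a median of -0.17, with 18.8% that rose and 59.9% that fell. Across 5647 genes Spearman's rho was -0.36 on array 1 and -0.32 on array 2, so the relation had the same direction under either dye. The medians of these shortest and longest classes were 0.18 and -0.16 in TBP-Y185C, against 0.13 and -0.07 in the F207L strain, all measured against the same wild-type strain. The part of RNA length, amplification or RNA quality in this was not tested. For that reason each gene list below has 2 medians where they differ by more than 0.1: that of its members, and that of their values relative to genes of like length.

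MOT1 itself measured higher in the mutant. Its log2 ratio was 2.24 on array 1 and 2.11 on array 2, a 4.51-fold excess with a standard error of 0.30 (limma adjusted p = 5.2e-04). In both bypass strains, which live without Mot1, the MOT1 signal was far below wild type, at -3.51 and -2.58. The genes on either side of the chromosomal MOT1 locus did not rise with it: SEN54, a tRNA splicing endonuclease subunit, was at -0.19, and RPS9A, a ribosomal protein gene, at -0.71. LEU2, a leucine synthesis enzyme and a common plasmid marker, was at 2.92 and 3.11, while the next gene NFS1 was at 0.02 and DCC1 at 0.05, neither past the test. SPT15 fell, at -0.49 and -0.23, and its neighbour PEA2 fell as well, by 0.32. URA3 was at -0.07 and did not pass, and TRP1, another marker, fell by 0.59. The mutant and wild type held different plasmids, so the level of MOT1, LEU2 or a marker gene from a plasmid and from the chromosome cannot be told apart.

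Past the 10 largest rises, ranks 11 to 30 ran from 2.40 for GAD1 to 2.03 for YLR252W. Of these ranks, all but MOT1 and YIR043C also rose in both bypass strains. GAD1, glutamate decarboxylase, was at 2.37 and 2.44, a 5.29-fold rise (adjusted p = 1.4e-07). Enzymes of carbon metabolism took several of these places: NQM1 (transaldolase) at 2.36 and 2.42, GND2 (6-phosphogluconate dehydrogenase) at 2.11 and 2.29, SOL4 (6-phosphogluconolactonase) at 2.21 and 2.17. SOL4 and GND2 catalyse successive steps of the oxidative part of the pentose phosphate pathway, NQM1 acts in its later part, and the arrays agreed closely for all 3. HXK1, a hexokinase used when glucose is scarce, was at 1.98 and 2.31. GPD1, the glycerol-3-phosphate dehydrogenase of osmotic stress, was at 2.27 and 1.94. ADH2, the alcohol dehydrogenase that consumes ethanol, was at 2.09 and 2.04, although its sequence is close to that of ADH1 and the probes may share signal. TSL1, a subunit of trehalose synthase, was at 2.02 and 2.10.

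Other genes of this rank act in the wall, in membranes or in folding. PIR3, a cell wall protein, was at 2.34 and 2.08, and HPF1, a wall mannoprotein, was at 2.10 and 2.13. YRO2, a plasma membrane protein related to Hsp30, was at 2.07 and 2.52, the widest gap between arrays among the 20. TAH1, a cofactor of Hsp90, was at 2.02 and 2.06. RGI1, a gene needed for respiratory growth, STF2, which acts with the ATP synthase and in desiccation tolerance, and the phosphatase PHM8 lay between 2.10 and 2.40 on each array. RTS3, linked to protein phosphatase 2A, had a mean of 2.07, and the short gene EGO4 had a mean of 2.32. YLR252W lacks an entry in the RefSeq annotation, and its neighbour SYM1, a mitochondrial membrane protein needed on ethanol, rose by 1.74. Whether the YLR252W probe reads a transcript apart from that of SYM1 was not tested. Only 6 of 480 tested reading frames without such an entry rose 2-fold (1.25% changed), against 5.42% changed among the genes of the annotation.

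**Figure D2:**
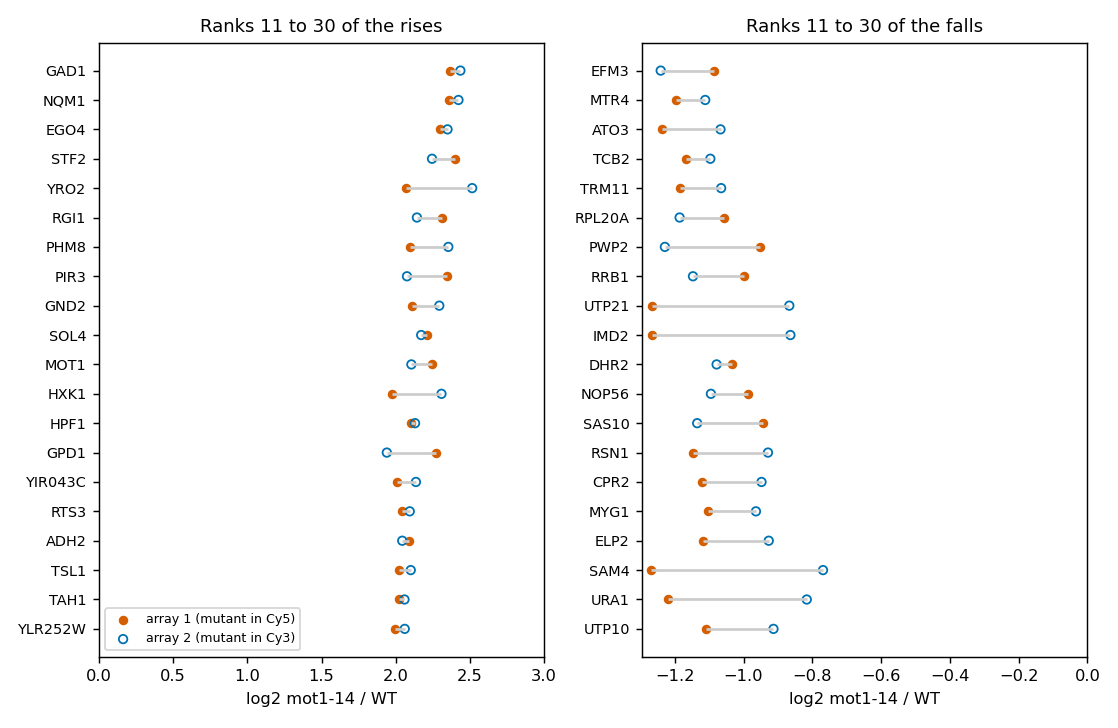
Log2 ratio of mot1-14 over wild type on array 1 (filled orange) and array 2 (open blue) for the genes ranked 11 to 30 among rises (left, all near or above 2) and falls (right, between -0.77 and -1.27).

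The falls of the same ranks were smaller, from -1.16 for EFM3 to -1.01 for UTP10. Every gene of these ranks fell in both bypass strains as well. EFM3, a methyltransferase of an elongation factor, was at -1.09 and -1.24 (adjusted p = 6.3e-07). MTR4, the RNA helicase that feeds the nuclear exosome, was at -1.20 and -1.11. TRM11, a tRNA methyltransferase, was at -1.18 and -1.07, and ELP2, a subunit of the Elongator complex that modifies tRNA, was at -1.12 and -0.93. Factors that assemble the small ribosomal subunit were PWP2 (-1.09), UTP21 (-1.07), DHR2 (-1.06), SAS10 (-1.04) and UTP10 (-1.01), and with them fell NOP56 (-1.04), a core protein of box C/D ribonucleoproteins, and RRB1 (-1.07), the chaperone of ribosomal protein L3. RPL20A, a ribosomal protein gene, fell by 1.12 and its near-identical copy RPL20B by 0.36, and their probes may share signal. Metabolic genes in this range were IMD2 (guanine nucleotide synthesis, -1.27 and -0.86), SAM4 (-1.27 and -0.77), which makes methionine from S-adenosylmethionine, and URA1 (-1.22 and -0.82), which makes a pyrimidine precursor. Membrane proteins fell too: ATO3, a putative ammonium exporter, by 1.15, TCB2, which ties the endoplasmic reticulum to the plasma membrane, by 1.13, and RSN1 by 1.04. CPR2, a secretory-pathway cyclophilin, and MYG1, a nuclease, each fell by 1.03.

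Gene lists by function carried the description past single genes. The 78 lists held 1736 of the tested genes and 107 of the 312 genes past 2-fold, so 205 of those lay outside every list. Over all genes tested the median was 0.0024, and 38 of the 78 lists had a median above 0. A list's share that rose or fell is to be read against the 37.9% and 35.0% of all genes.

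**Figure D3:**
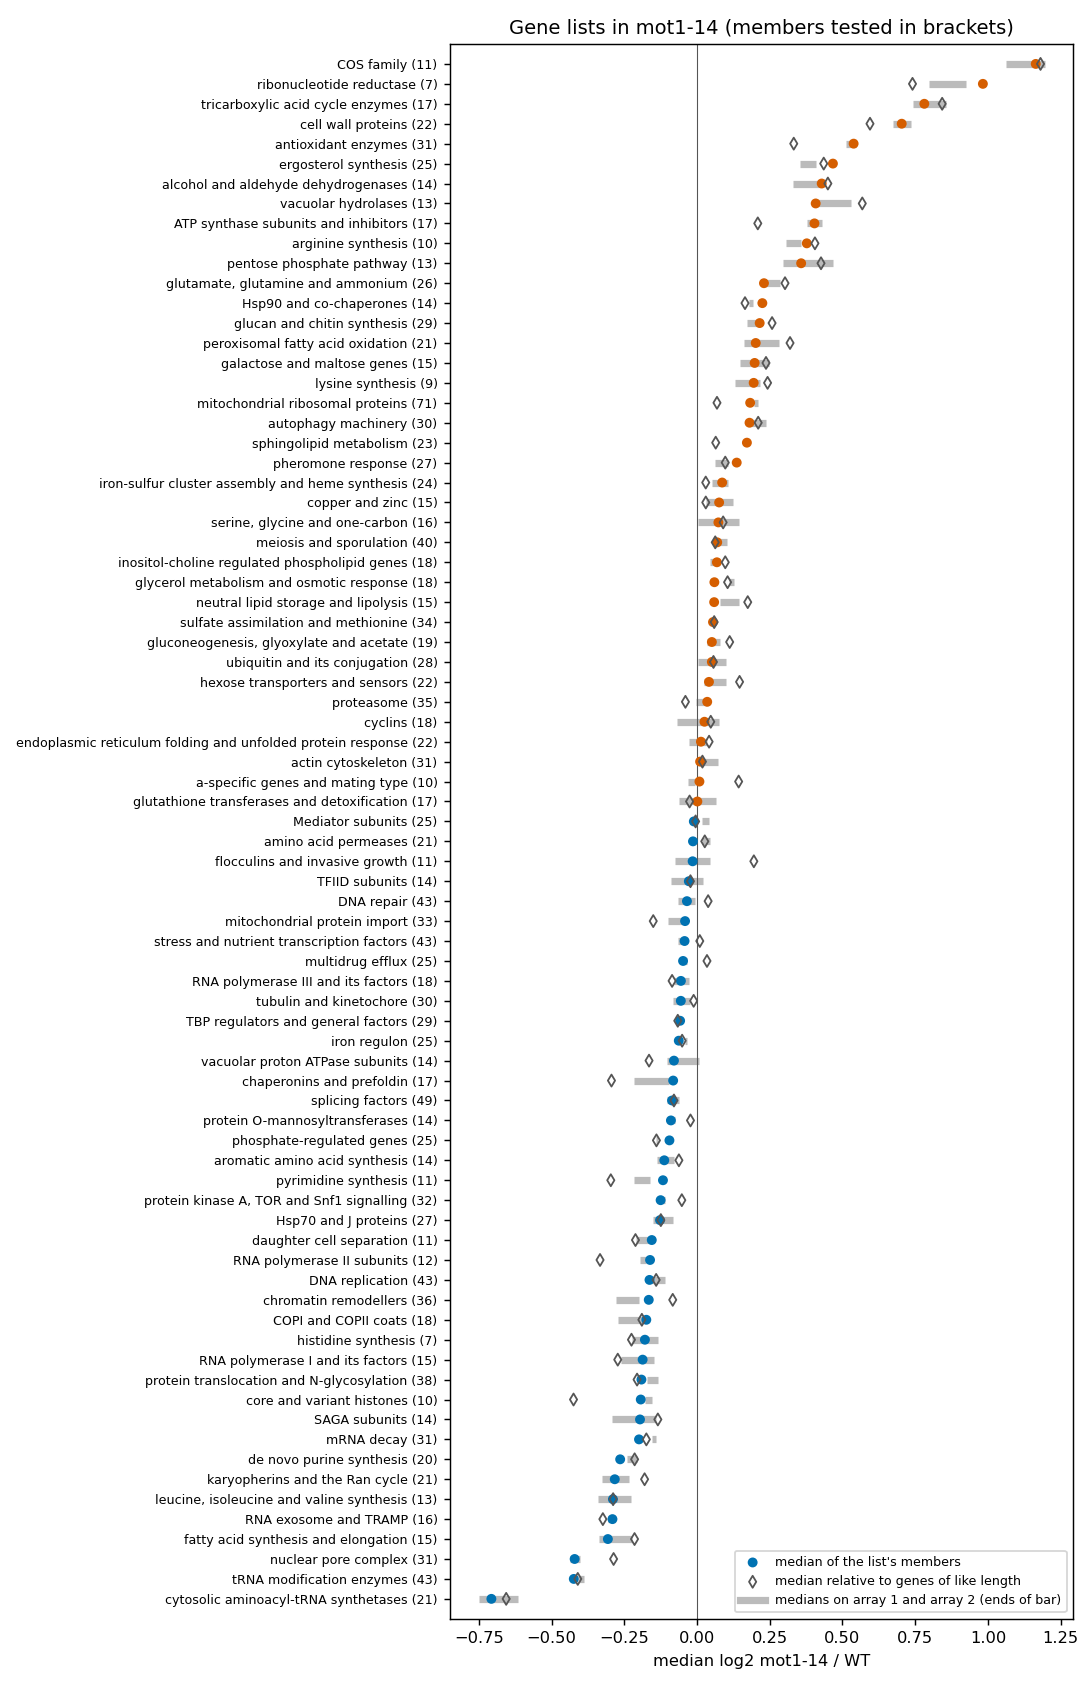
Median log2 ratio of mot1-14 over wild type for each of 78 gene lists (filled points), with the medians on the 2 arrays as the ends of the grey bar and the median relative to genes of like length as open diamonds. The COS family lies highest at 1.16 and the cytosolic aminoacyl-tRNA synthetases lowest at -0.71.

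The supply lines of protein synthesis fell together. Of 21 cytosolic aminoacyl-tRNA synthetases, the enzymes that load tRNAs with amino acids, 19 fell and none rose, with a median of -0.71. The largest fall after SES1 was VAS1 (valine), at -0.86 and -1.09, followed by MES1 (methionine) at -0.90 and -0.91, CDC60 (leucine) at -0.92 and -0.87 and TYS1 (tyrosine) at -0.95 and -0.82. DPS1 (aspartate, -0.01) and YHR020W (proline, -0.08) did not pass. Among 43 tRNA modification enzymes 34 fell and 3 rose, with a median of -0.42; the low end was TRM11, ELP2, TRM3 (-0.90) and TRM1 (-0.84), and the rises were TAD2 (0.72), a tRNA deaminase subunit, TRM9 (0.23) and MOD5 (0.11). Relative to genes of like length both medians moved by less than 0.1. In TBP-Y185C and TBP-F207L the medians were -0.70 and -0.64 for the synthetases, and -0.50 and -0.41 for the modification enzymes.

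Polymerases that make ribosomal and transfer RNA had more genes fallen than risen. RNA polymerase I and its factors had 9 of 15 fallen and 2 risen (RRN5 at 0.33 and UAF30 at 0.14), with a median of -0.19. Its catalytic core subunits RPA190 (-0.71) and RPA135 (-0.80) and the subunit RPA49 (-0.83) fell most. For RNA polymerase III and its factors 8 of 18 fell (44.4%) and 3 rose (16.7%), with a median of only -0.06. That list's medians were 0.05 in TBP-Y185C and 0.20 in TBP-F207L. The largest subunit RPO31 was at -0.95 and -0.87 and RPC31 at -0.84 and -0.65. MAF1, the repressor of RNA polymerase III, rose by 0.36, with TFC7 (0.30) and RPC17 (0.11). RNA polymerase II had 8 of 12 subunits fallen, with RPB2, the second largest, at -0.75, a median of -0.16 and of -0.33 relative to like length; RPB10 (0.22) and RPB4 (0.12) rose.

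Nuclear transport and RNA surveillance shared the fall. None of 31 nuclear pore proteins rose and 28 fell, with a median of -0.42, or -0.29 relative to genes of like length. NUP170 (-0.88 and -0.69), NUP145 (-0.99 and -0.57), NUP100 (-0.73 and -0.65) and NUP116 (-0.74 and -0.61) were lowest. The pore list had medians of -0.38 in TBP-Y185C and -0.25 in TBP-F207L. Of 21 karyopherins and Ran-cycle genes 15 fell, among them SRM1, the Ran exchange factor (-0.65), while GSP2, the lesser Ran gene, rose by 0.71 and NTF2 by 0.16; the median was -0.28, or -0.18 relative to like length. In the RNA exosome and its TRAMP cofactor 12 of 16 fell and none rose, with a median of -0.29, led by MTR4, the nuclease RRP6 (-0.87), the poly(A) polymerase PAP2 (-0.56) and CSL4 (-0.51). The mRNA decay factors had 18 of 31 fallen, including the 5′ exonuclease XRN1 (-0.73), the deadenylation scaffold CDC39 (-0.61), NOT3 (-0.56) and PAT1 (-0.54). EDC2, a decapping enhancer, went against that list at 1.25 and 1.65, as did LSM3 (0.49), LSM2 (0.32), LSM7 (0.24), CAF40 (0.20) and SKI8 (0.16) by less.

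Mitochondrial energy genes rose, most clearly the tricarboxylic acid cycle. Of 17 cycle enzymes 14 rose, 5 of them past 2-fold (29.4% of the list against 4.50% of all genes), and 1 fell, with a median of 0.78. The 4 subunits of succinate dehydrogenase were all among those 5: SDH2 at 1.89 and 1.61 (3.36-fold), SDH4 at a mean of 1.52, SDH1 at 1.52 and 1.27, SDH3 at 1.14 and 1.23. IDH1, a subunit of isocitrate dehydrogenase, was the fifth at 1.26 and 1.27 (adjusted p = 3.9e-07). The only fall in the cycle was LPD1 at -0.13, whose arrays disagreed in sign (-0.44 and 0.19). The cycle's median was 0.65 in TBP-Y185C and 0.58 in TBP-F207L. CIT2, the peroxisomal citrate synthase, is counted with the glyoxylate genes and fell by 0.46, while the mitochondrial form CIT1 rose by 0.90.

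The rest of the mitochondrion followed less uniformly. Among 17 ATP synthase subunits and inhibitors 15 rose, with a median of 0.40 that dropped to 0.21 relative to genes of like length, its members having a median length of 348 bases. Its largest were STF2, ATP7 (1.18 and 0.94), the inhibitor INH1 (0.78) and ATP15 (0.74), and ATP3, the gamma subunit, fell by 0.15. Of 71 mitochondrial ribosomal proteins 44 rose and 11 fell, with a median of 0.18, but relative to genes of like length the median was 0.07. They ranged from RSM18 at 1.21 and 0.78, past MRPL31 (0.91), MRPS8 (0.79) and SWS2 (0.75), to MRPL3 at -0.49 and -0.56. Mitochondrial protein import had 13 of 33 risen and 15 fallen, with a median of -0.04, or -0.15 relative to genes of like length, and was mixed by type: the small chaperones TIM9 (0.69) and TIM8 (0.53) rose, but TIM10 (-0.50), the channel subunit TIM23 (-0.57) and the Hsp70 SSC1 (-0.53) fell.

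Alternative carbon use showed large rises of single enzymes. In the pentose phosphate pathway, which makes NADPH and ribose, 11 of 13 enzymes rose and 2 fell, with a median of 0.36. The high end, NQM1, GND2 and SOL4, was far above SOL3 (0.82 and 0.98), and the entry enzyme ZWF1 rose by 0.62; SOL1 (-0.09) and RKI1 (-0.40) fell. Of 14 alcohol and aldehyde dehydrogenases 8 rose, 5 past 2-fold, with a median of 0.43: ADH2, the mitochondrial ALD4 (1.63 and 1.56), ALD2 (1.42 and 1.23), ALD3 (1.29 and 1.35) and the butanediol dehydrogenase BDH1 (1.15 and 1.30). ADH6, an NADPH-dependent enzyme, fell to -1.09 and -0.89, and ALD5 fell by 0.64. ALD2 and ALD3 are near-identical tandem genes whose probes may share signal.

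Sugar uptake and gluconeogenesis did not move as blocks. Of 22 hexose transporters and sensors 9 rose and 5 fell, with a median of 0.04, or 0.15 relative to genes of like length. HXT1, the low-affinity transporter of high glucose, was the low end at -1.07 and -0.95, while HXT7 (0.86 and 0.99) and HXT6 (0.59 and 0.80), high-affinity transporters too alike to be told apart, and HXT9 (1.10 and 1.00) rose. The other falls were HXT2 (-0.59), the sensors' partner STD1 (-0.34), the sensor RGT2 (-0.29) and HXT3 (-0.17). Gluconeogenesis, glyoxylate and acetate genes had 8 of 19 risen and 4 fallen: ACH1 (1.19 and 1.32), ACS1 (1.02 and 1.03), PCK1 (0.75 and 0.66) and SFC1 (0.66 and 0.60) were highest, whereas CIT2, ICL1 (-0.38), FBP1 (-0.18) and CAT8 (-0.12) fell. ACS1 is the acetyl-CoA synthetase of respiring cells, and PCK1 and FBP1 are the key steps of gluconeogenesis.

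Redox enzymes rose as a group with a marked exception. Of 31 antioxidant enzymes 21 rose, 9 of them past 2-fold (29.0% of the list), and 6 fell; the median was 0.54, or 0.33 relative to genes of like length. PRX1, the mitochondrial peroxiredoxin, was at 1.82 and 1.97 and CCP1, cytochrome c peroxidase, at 1.45 and 1.61. The glutaredoxins GRX2 (1.52 and 1.16) and GRX1 (1.38 and 1.20) came next. The list's median was 0.87 in TBP-Y185C and 0.56 in TBP-F207L. Both enzymes of glutathione synthesis fell, GSH1 to -0.62 and -0.80 and GSH2 to -0.59 and -0.66, as did thioredoxin reductase TRR1 (-0.60), thioredoxin TRX1 (-0.36), the copper chaperone CCS1 (-0.88) and DOT5 (-0.22).

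Protein folding genes changed in both directions. In the Hsp90 list 9 of 14 rose and 4 fell, with a median of 0.22: TAH1, HSP82 (1.67 and 1.87), STI1 (1.06 and 0.71) and AHA1 (0.70 and 1.02) were highest, and PPT1 (-0.88), CNS1 (-0.55), HCH1 (-0.29) and the constitutive Hsp90 gene HSC82 (-0.23) fell. Of 27 Hsp70 and J-protein genes 7 rose and 14 fell, with a median of -0.13. SSA4 (1.60 and 1.79), the J protein SIS1 (1.46 and 1.21) and SSE2 (1.25 and 1.35) stood against the ribosome-bound SSB1 (-0.53) and SSB2 (-0.47), SSE1 (-0.56) and SSC1. Chaperonins and prefoldin had 8 of 17 fallen and 6 risen, with a median of -0.08, or -0.29 relative to like length. CCT7 (-0.90 and -0.89), CCT3 (-0.81 and -0.94), CCT8 (-0.75 and -0.90) and CCT4 (-0.45 and -0.95), subunits of the cytosolic ring that folds actin and tubulin, were low, while the mitochondrial pair HSP60 (0.48) and HSP10 (0.76) rose.

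Degradation in the vacuole rose, while the proteasome did not. Of 13 vacuolar hydrolases 11 rose and none fell, with a median of 0.41, or 0.57 relative to genes of like length. PRB1, the vacuolar protease B, was at 1.42 and 1.44, ATG42, a carboxypeptidase, at 1.09 and 1.44, PEP4, the protease A that activates the others, at 0.72 and 0.90, and carboxypeptidase PRC1 at 0.70 and 0.66. Autophagy had 23 of 30 risen and none fallen, with a median of 0.18: the mitophagy gene ATG33 (1.34 and 1.24), the nucleophagy receptor ATG39 (1.10 and 1.29) and the membrane tag ATG8 (1.26 and 1.11) passed 2-fold, followed by ATG3 (0.76). Among 35 proteasome genes 12 rose and 15 fell, with a median of 0.03 and no change past 2-fold, from PRE7 at 0.46 to RPN10 at -0.47. The polyubiquitin gene UBI4 stood apart from the proteasome at 1.76 and 1.64 (3.25-fold).

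Lipid genes divided by pathway. Ergosterol synthesis, which makes the main sterol of yeast membranes, had 18 of 25 genes risen and 3 fallen, with a median of 0.47. ERG28, a scaffold of the demethylation enzymes, was at 1.17 and 1.02, ERG10 at 0.84 and 1.05, ERG2 at 0.92 and 0.91 and ERG20 at 0.76 and 0.77, while IDI1 (-0.26), ERG6 (-0.19) and HMG2 (-0.17) fell. Fatty acid synthesis went the other way, with 9 of 15 fallen and 3 risen and a median of -0.31, or -0.21 relative to genes of like length. FAA4, which activates fatty acids, was at -0.98 and -1.02, FAA3 at -0.59, the carboxylase ACC1 at -0.48 and both synthase genes FAS1 (-0.46) and FAS2 (-0.37) below wild type; ELO1 (0.78), ACB1 (0.39) and FAA1 (0.11) rose. Peroxisomal fatty acid oxidation had 14 of 21 risen and 3 fallen, with a median of 0.20, or 0.32 relative to like length: POT1 (1.28 and 1.42), SPS19 (1.30 and 1.22), PEX11 (1.36 and 1.15) and ECI1 (0.74) were high, and PXA1 (-0.37), YAT2 (-0.24) and TES1 (-0.23) fell. With the scanner's log ratios POT1 was at 2.77 and the median of that list at 0.42. In sphingolipid metabolism 13 of 23 rose, with a median of 0.17, or 0.06 relative to like length. YPC1, a ceramidase, was at 1.89 and 2.11 and ORM2, which restrains the first step, at 1.57 and 1.18, while that first step's enzyme subunits LCB2 (-0.54) and LCB1 (-0.11) fell with LAG1 (-0.54), TSC10 (-0.50) and AUR1 (-0.26).

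Amino acid and nucleotide synthesis showed opposite signs in neighbouring branches. Arginine synthesis had 7 of 10 genes risen and 2 fallen, with a median of 0.38, from ARG3 (1.14 on each array), ARG1 (0.83) and ARG56 (0.61) to ORT1 (-0.12) and ARG2 (-0.13). In the leucine, isoleucine and valine list 9 of 13 fell, with a median of -0.29, and LEU2 stood alone among them in rising past 2-fold. BAT2 (-1.01 and -0.85), OAC1 (-0.90 and -0.77), LEU9 (-0.90 and -0.70) and LEU1 (-0.44 and -0.37) fell, and LEU4 rose by 0.29. Glutamate, glutamine and ammonium genes had 15 of 26 risen: the permease AGP1 (1.03 and 1.52) and the GABA pathway enzymes UGA1 (1.01 and 1.37) and UGA2 (0.93 and 1.02) were highest, with the general permease GAP1 (0.85 and 0.96). The repressor URE2 (-0.65), GLN1 (-0.60), GLN3 (-0.26) and MEP1 (-0.21) fell.

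De novo purine synthesis had 15 of 20 genes fallen and 4 risen, with a median of -0.26. IMD3 (-0.85 and -0.71) and IMD4 (-0.62 and -0.53), of the same enzyme family as IMD2, were lowest. MTD1, a folate enzyme, at 0.95 and 1.12, ADE17 at 1.06 and 0.80, ADE1 at 0.26 and 0.40 and the gene listed as ADE57, whose arrays differed in sign, rose. Ribonucleotide reductase, which makes the DNA precursors, rose against this: 6 of 7 genes rose with a median of 0.98, or 0.74 relative to genes of like length. RNR2 was at 1.44 and 1.49 (2.76-fold, adjusted p = 3.2e-07), RNR4 at 0.92 and 1.04, the inhibitor SML1 at 1.20 and 0.80 and DIF1, which imports the small subunit, at 0.93 and 1.06. The large subunit RNR1 was at -0.07 and 0.00 and did not pass.

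Several chromosome and cell division lists were lower, while others lay near the shares of all genes. Cyclins had 6 of 18 risen and 6 fallen (median 0.03), and DNA repair genes had 11 of 43 risen and 16 fallen (median -0.03). For 30 tubulin and kinetochore genes 13 fell and 8 rose (median -0.06). Of 43 DNA replication genes 26 fell and 7 rose, with a median of -0.16, between DPB3 at 0.73 and MCM3 at -0.61. Core and variant histones, with 7 of 10 fallen, had a median of -0.19, or -0.42 relative to genes of like length, the low end being the linker histone HHO1 (-0.39), HTA2 (-0.29) and HTB1 (-0.25). Among 11 daughter cell separation genes 8 fell, led by AMN1 (-1.03 and -0.90), SCW11 (-0.67) and EGT2 (-0.58), and SWI5 (0.31), their activator, CTS1 (0.15) and DSE4 (0.14) rose. Chromatin remodellers had 24 of 36 fallen and 4 risen, with a median of -0.17, or -0.08 relative to like length; STH1, the ATPase of the RSC complex, was at -0.95 and -0.79, and SNF11 (0.79), IES2 (0.66), ITC1 (0.24) and IES3 (0.23) rose. Among the transcription machinery lists, 9 of 14 SAGA subunits fell (median -0.20), with SGF11 and SPT3 each up by 0.39. Of 14 TFIID subunits 5 fell (median -0.03), and TAF10 (0.65), TAF9 (0.23), TAF8 (0.20) and TAF13 (0.15) rose. Of 25 Mediator subunits 9 rose and 4 fell (median -0.01). BUR6 (1.20 and 1.35) and NCB2 (0.92 and 0.66), which form the TBP repressor NC2, both rose. The list of TBP regulators and general factors did not rise with them: 13 of 29 fell and 9 rose, 2 of them past 2-fold, with a median of -0.06.

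The cell wall was the site of some of the highest members of any list. Of 22 cell wall proteins 17 rose, 9 past 2-fold (40.9% of the list), with a median of 0.70, or 0.59 relative to genes of like length. PIR3 led, with PST1 (1.62 and 1.72), YGP1 (1.76 and 1.45) and SED1 (mean 1.43) next, and PLB2 (-0.40) and TIR4 (-0.10) fell. PST1 and YGP1 are secreted wall proteins known to respond to wall damage and starvation, and SED1 is a major wall protein of stationary cells. Glucan and chitin synthesis had 18 of 29 risen, where GSC2, the alternative glucan synthase, was at 1.61 and 1.65. Phosphate-regulated genes split: the acid phosphatases PHO5 (1.48 on each array), PHO3 (1.44 and 1.39), PHO12 and PHO11 rose past 2-fold with PHM8, while the polyphosphate synthase subunits VTC3 (-0.97), VTC4 (-0.83) and VTC2 (-0.74) and the regulator PHO81 (-0.68) fell. PHO11 and PHO12, and PHO3 and PHO5, are pairs of similar sequence and may share signal. CUP1-1, a copper metallothionein present in repeated copies, was 4.001-fold higher (log2 SE 0.034).

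The COS family had the highest median of the 78 lists. COS genes lie beside the telomeres and encode membrane proteins that help to sort other membrane proteins into the vacuole. Of 11 listed members, 10 rose and 6 passed 2-fold (54.5% of the list against 4.50% of all genes), with medians of 1.06 on array 1 and 1.19 on array 2. COS8 was highest at 1.56 and 1.80 (3.21-fold, adjusted p = 2.9e-06), followed by COS3 at 1.35 and 1.19, COS12 at 1.14 and 1.29 and COS2 at 1.28 and 1.14. With the scanner's log ratios COS8 was at 2.48, COS12 at 2.20 and COS3 at 1.29, so the order below COS8 changed. COS10 was at -0.04 on each array and did not pass. Members are close in sequence, so their probes may share signal and the family is not 11 independent measurements. In the bypass strains the family's median was 0.01 in the Y185C strain and -0.18 in the F207L strain. The difference between mot1-14 and the mean of both bypass strains had a median of 1.14 and passed the test above 0 in 10 of 11 members.

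Position near a chromosome end was then examined, after the COS values had been seen. Of 241 tested genes within 20 kb of the outermost annotated gene of a chromosome, 27 rose 2-fold (11.2%), and 21 of 230 did (9.13%) with the COS genes left out. That window gave the highest share of the 4 examined: without COS genes it was 6.31% within 10 kb (7 of 111), 7.99% within 30 kb and 7.24% within 50 kb. Beyond 50 kb the share was 4.36% (217 of 4977). The COS genes were left out by name, so YIR043C stays among the 21 genes. Likeness in sequence of the remaining genes to the COS family was not tested. The medians over the 241 genes were 0.06 in TBP-F207L, 0.11 in TBP-Y185C and 0.15 in mot1-14. YIR043C, a pseudogene at the right end of chromosome IX, was at 2.01 and 2.14, and its neighbour YIR042C at 1.62 and 1.75 (2.91 and 2.55 with the scanner's log ratios). Other members were the vitamin genes SNZ2 (1.29), SNZ3 (1.34), THI5 (1.23), THI11 (1.05) and THI12 (1.41), which belong to repeated families, and ARR1 (1.34), the arsenic resistance regulator.

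Neighbouring genes were compared because TBP can serve promoters that face each other. Among 5255 adjacent, non-overlapping pairs of tested genes, 4.70% of the gene ends belonged to a gene that rose 2-fold. Beside such a gene the neighbour had also risen 2-fold in 5.22% of divergent cases (6 of 115) and 4.65% of convergent cases (6 of 129). In tandem pairs the share was 13.6% (34 of 250). A pair in which both genes rose counts at both ends, so these shares rest on 3 divergent, 3 convergent and 17 tandem pairs. The tandem pairs included duplicated genes, such as ALD3 with ALD2 and PHO3 with PHO5. The other tandem examples included YIR042C with YIR043C, GPD1 with GPM2, PRB1 with SOM1, INO1 with SNA3 and UBC8 with GLC3. Divergent pairs that rose together were BIO4 (1.44) with BIO3 (1.91), both of biotin synthesis, IDH1 with NCE103 (1.16), a carbonic anhydrase, and SDH6 (1.59) with ARO10 (1.29).

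Isoenzyme pairs were compared within a single function. For 51 tested pairs the first-named gene was, for most, the form known from stress or respiration and the second the form of growth on glucose. The first rose in 47 pairs, 26 times past 2-fold, and was higher than the second in 44 pairs. Over all genes tested, 37.9% rose and 4.50% rose 2-fold or more. Several first-named genes, such as TMA10, CYC7 and GPM2, were among the largest rises of all genes. The counts therefore depend on which pairs were chosen and which gene was named first, and they are not a test of a general rule. The medians were 1.03 for first-named and 0.02 for second-named genes. In 19 pairs the first rose while the second fell, in 21 both rose, in 7 only the first passed, and the remaining 4 pairs were ARF2 with ARF1, CIT2 with CIT1, GIS1 with RPH1 and DAK2 with DAK1.

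Glycerol synthesis shows the pattern at both of its steps. GPD1 was at 2.27 and 1.94 and GPD2, its form for growth without oxygen, at -0.03 and -0.37. At the next step GPP2 was at 1.30 and 1.48 and GPP1 at -0.51 and -0.60. The sugar-phosphate step had PGM2 at 1.51 and 1.40 against PGM1 at -0.24 and -0.21. These pairs were taken from among the wider differences of the 51, so the separation of their arrays follows from that choice.

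Folding and regulation gave like contrasts. HSP82 and HSC82, the Hsp90 genes, were at 1.77 and -0.23, and the Hsp110 genes SSE2 and SSE1 at 1.30 and -0.56. MSN4 and MSN2, which share the role of general stress activator, were at 0.99 and -0.34. SDS24 and SDS23 were at 1.47 and -0.26. Among the pairs with the other order were the glycogen primers GLG1 (0.65) and GLG2 (1.23) and the dihydroxyacetone kinases DAK2 (0.10, not past the test) and DAK1 (1.00). The glutathione peroxidase, transketolase and glutamate dehydrogenase pairs had that order as well, with both genes risen. The glutaredoxins GRX1 and GRX2 and the peroxiredoxins TSA2 (0.68) and TSA1 (0.66) rose to like levels. No test between the genes of a pair was made, and closely similar pairs may share signal.

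**Figure D4:**
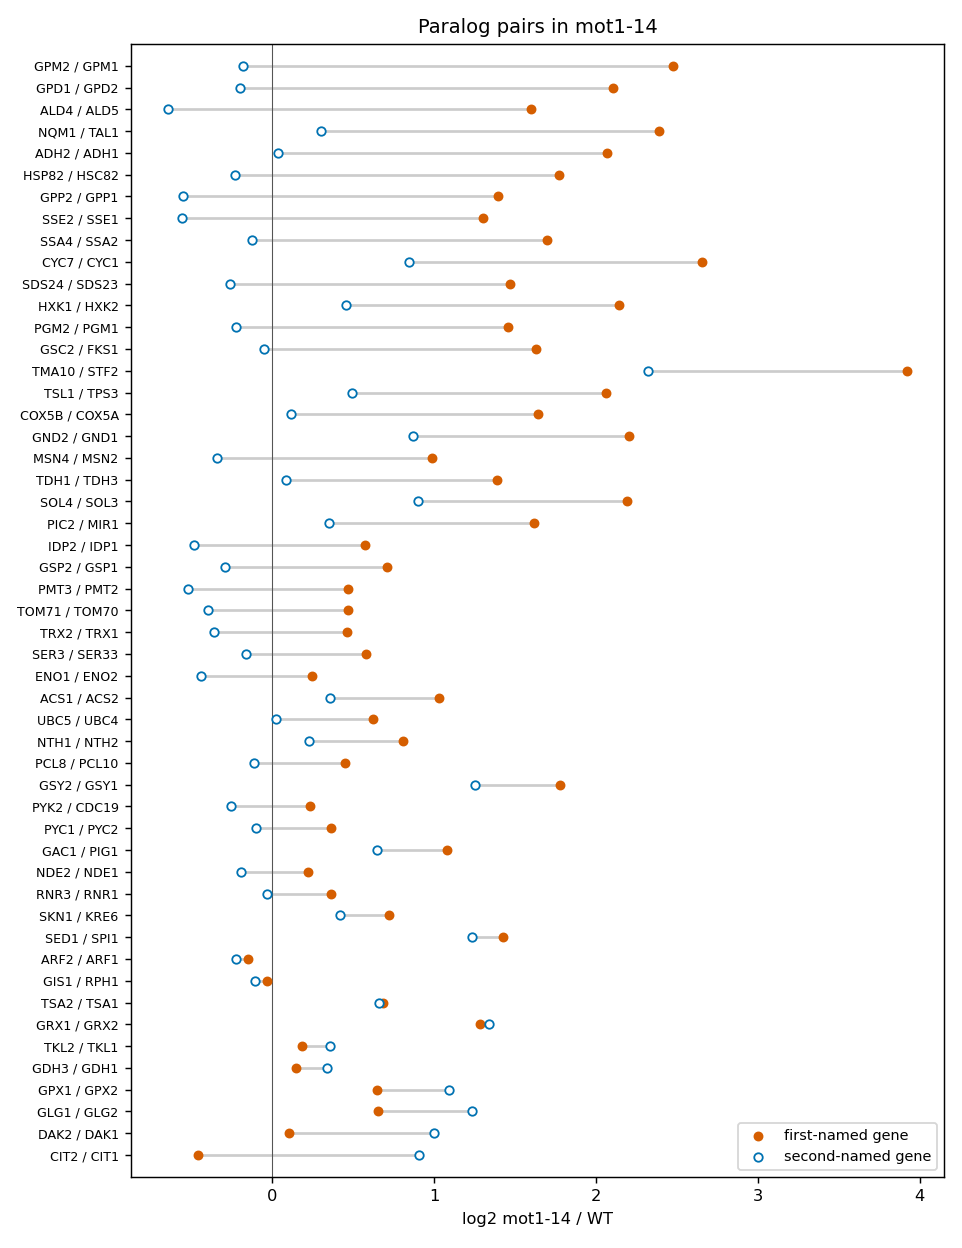
Log2 ratio of mot1-14 over wild type, as the mean of 2 arrays, for both genes of 51 paralog pairs, ordered by the difference between them. The first-named gene (filled orange) is higher than the second (open blue) in 44 pairs, and the reverse is largest for CIT2 and CIT1.

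The bypass strains carry a mutant TBP and live without Mot1. The study's design compares the genes they change with those changed in mot1-14. Since all 3 strains were measured against the same wild type, the strains were compared by a contrast of mot1-14 minus the mean of both bypass strains. It passed in 3546 genes (57.9%), and at 2-fold or more mot1-14 was above the bypass strains in 39 genes (0.637%) and below them in 31 (0.506%). For 214 genes the sign in mot1-14 was opposite to that in both bypass strains, with all 3 values past the test, and 26 of these were 2-fold apart.

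BNA4 and BNA5, enzymes of the kynurenine pathway that makes NAD from tryptophan, were 2 of the 10 genes furthest above the bypass strains. BNA4 was at 1.63 and 1.49 in mot1-14, against -0.50 in TBP-Y185C and -0.98 in TBP-F207L, a difference of 2.30 ± 0.04 (SE, limma adjusted p = 4.6e-07). BNA5 was at 0.40 and 0.65 in mot1-14 and -0.80 and -1.42 in the bypass strains. Both genes thus had opposite signs in mot1-14 and in each bypass strain. The other BNA genes, chosen after their values were seen, did not all follow: the difference was 1.32 for BNA7, 0.63 for BNA2 and 0.57 for BNA6, while it was 0.03 for BNA3 and did not pass. BNA1 was at -1.77 in mot1-14 and -1.73 and -1.79 in the bypass strains, a difference of -0.01 that did not pass (limma adjusted p = 0.90). CWP1, a cell wall mannoprotein, was at 0.88 and 0.77 against -0.81 and -1.25, and FRE7, a metal reductase, at 0.76 and 0.99 against -0.92 and -0.97.

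For other genes the difference lay mainly in the bypass strains. HXT4, a glucose transporter, was at 0.42 in mot1-14 and -0.75 and -1.75 in the bypass strains. IRC7, a cysteine-cleaving enzyme, was at -0.01 in mot1-14, not past the test, and at -1.65 in each bypass strain. The aquaporin-like reading frame YLL053C was at 0.24 against -1.23 and -1.70. YIR043C and COS8 differed in the other manner, with high values in mot1-14 and bypass values between -0.43 and 0.17.

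Genes below the bypass strains included those nearest to the strain construction. TRP1 was at -0.59 in mot1-14 and at 4.83 and 4.51 in the bypass strains, SPT15 at -0.36 against 4.07 and 3.63, and PEA2, next to SPT15, at -0.32 against 3.54 and 3.23. The part of the TBP plasmid in these 3 values was not tested. MOT1 had the opposite pattern, a difference of 5.22.

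Another set below the bypass strains belongs to leucine and branched-chain synthesis. LEU1 was at -0.41 in mot1-14 against 2.85 and 3.24, OAC1, a mitochondrial carrier that exports a leucine precursor, at -0.84 against 2.14 and 2.46, ILV2 at -0.29 against 1.30 and 1.77 and BAT1 at -0.32 against 1.49 and 1.44. Of the 13 genes of the leucine, isoleucine and valine list, 8 were below the bypass strains and 2 above. LEU2 itself was above them, at 3.02 against 1.95 and 1.89. The strains held different plasmids, and the part of the plasmids or of the LEU2 level in this set was not tested. SER3 (serine synthesis) was at 0.58 against 2.69 and 2.18, and the iron-sulfur proteins DRE2 (-0.84) and ISU2 (-0.01) were at 0.80 and 0.76 and at 1.65 and 1.52 in the bypass strains.

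Whole lists differed as well, and by less. The proteasome, with a median of 0.03 in mot1-14, had medians of 0.20 and 0.34 in the bypass strains, and 30 of its 35 genes were below them and none above. Sulfate assimilation and methionine genes had 25 of 34 below, with medians of 0.05 in mot1-14 and 0.51 and 0.36 in the bypass strains. Histones had 8 of 10 below, and DNA repair genes 23 of 43. Karyopherins had 13 of 21 above and 1 below, and cell wall proteins 14 of 22 above and 1 below. Over all genes tested, 1779 were above and 1767 below.

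**Figure D5:**
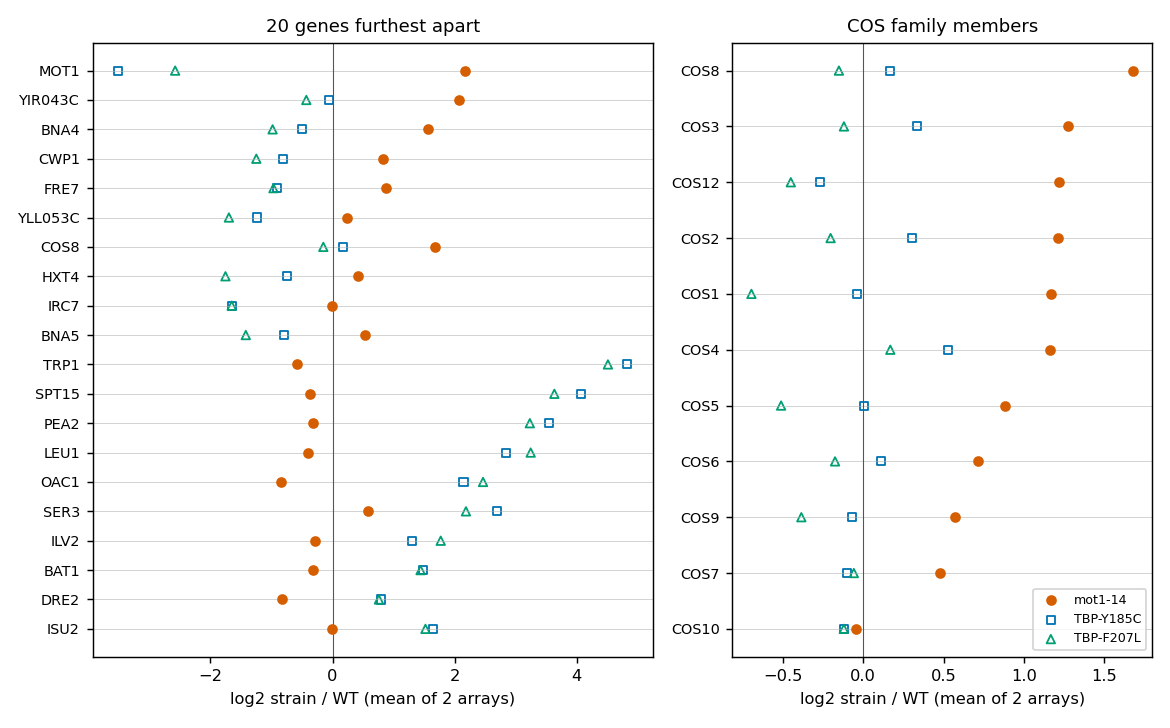
Log2 ratio over wild type, as the mean of 2 arrays, in mot1-14 (filled orange circles), TBP-Y185C (blue squares) and TBP-F207L (green triangles). Left, the 10 genes furthest above and the 10 furthest below the mean of the bypass strains; right, the 11 COS genes of the list, of which all but COS10 lie between 0.48 and 1.68 in mot1-14.

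The 5 genes whose mot1-14 arrays differed most were sought among genes well above background in both channels of both arrays. Dimmer genes were left out of that search. YOR248W was at 0.90 and -0.04, Q0017 at 0.60 and -0.34, YFR018C at -0.33 and 0.58, COQ5 at -0.32 and 0.50 and YDL228C at 0.06 and -0.75. The median difference between arrays over all genes was 0.12, so these gaps were several times the usual spread. YOR248W and YDL228C passed the test on their means all the same, since the fit takes a dye effect shared by all 6 arrays into account.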

How the data were processed

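RNA was hybridised to Agilent yeast oligonucleotide arrays, and the spots were quantified with Agilent Feature Extraction 7.5.1, per the file headers. The authors deposited, per array, mean and background spot intensity in each channel, a log10 ratio of red over green and its p-value, and a table of log2 red over green that followed the scanner's ratios and was not turned to mutant over wild type. From the deposited intensities, background was corrected by normexp (offset 50), outlier-flagged spots and 544 control spots were left out, each array was normalized by loess and spots of a probe were averaged, giving 6256 probes. Probes well above background on at least 2 arrays (6232) entered 1 fit of all 6 arrays in limma 3.58.1 (R 4.3.3) with a dye intercept (2 residual degrees of freedom, prior 4.68); p-values were adjusted by Benjamini-Hochberg over the 6127 genes with values on both mot1-14 arrays. The number of arrays limits the precision (median standard error 0.0366). The fit was tested on simulated data. Symbols and positions come from RefSeq R64 (5756 of 6256 probes matched). The members and the 78 gene lists (1737 names tested, 18 not) were chosen with earlier results of these data known; list medians have no p-value. Named genes are ranks 11 to 30 each way and up to 4 largest members of each list described. Members against a list's median are also named (only the largest where there were more than 6). Further named genes are the pairs described, 10 genes each way against the bypass strains and plasmid-linked genes with their neighbours. The 5 least concordant genes among those well above background on both arrays complete the set. The result on promoter motifs was not run, as promoter sequences were not used here. The alternatives tried were other ratios, background, centring, dye, filter and left-out array settings.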

Additional observations from a re-analysis of the deposited data

Results flagged for a closer look

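A total of 70 genes were 2-fold or more apart between mot1-14 and the mean of both bypass strains in a test of the difference itself (limma contrast, adjusted p under 0.05), each strain being measured against the same wild type. The difference of log2 ratios, mot1-14 minus bypass mean, was 5.22 for MOT1, 2.31 for YIR043C, 2.30 for BNA4, 1.85 for CWP1, 1.81 for FRE7, 1.71 for YLL053C, 1.67 for COS8, 1.67 for HXT4, 1.64 for IRC7 and 1.63 for BNA5. On the other side it was -5.26 for TRP1, -4.22 for SPT15, -3.70 for PEA2, -3.45 for LEU1, -3.14 for OAC1, -1.86 for SER3, -1.82 for ILV2, -1.78 for BAT1, -1.61 for DRE2 and -1.60 for ISU2. Each slide held 1 strain, so slide and strain cannot be told apart in these differences. The strains held different plasmids, and the part of the plasmids in the values of MOT1, TRP1, SPT15 and PEA2 was not tested. Nor was their part in the values of LEU1, OAC1, ILV2 and BAT1.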

How the results depend on the processing

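No named gene that passed the test, and no list median of 0.1 or more in size, changed sign under any alternative. With the scanner's deposited log ratios, which have no offset against noise in dim spots, the 312 genes past 2-fold became 519, holding all 312, and the 70 genes apart from the bypass strains became 120; 37 of 78 list medians moved by more than the spread between arrays, and SFC1 (1.27 in place of 0.63) and THI11 (1.81 in place of 1.05) were among 11 named genes that moved by more than 1.5-fold. The limma treat test against 1.5-fold called 658 genes, and the deposited p-values under 0.05 on both arrays called 1994 in place of 4465. Leaving out 1 mot1-14 array in turn gave 3474 to 3682 genes, 292 to 347 past 2-fold and 66 to 80 apart from the bypass strains; the lone array is then assumed to vary like the others. With only the 2 mot1-14 arrays 3068 genes passed, and without a dye intercept 3294, in each case with 312 past 2-fold. Relative to genes of like length, an alternative chosen after seeing the data, 41 lists had a median above 0 in place of 38. No paired analysis was possible because the labels give no replicate numbers; those used here were given in accession order, and in each strain they mark the dye, already a term of the fit. A slide block was not run, since as a fixed term it left 0 residual degrees of freedom and as a random term its correlation could not be estimated; the promoter motif result and its alternatives were not run. Signal over background, 6.74 to 10.9 on these arrays, limits dim genes: 39 genes were not well above background in wild type on either array.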

Other observations

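Iron, zinc, mating and sulfur genes changed in both directions in mot1-14. Of 25 iron regulon genes 7 rose and 12 fell, with a median of -0.06, and FET3, the iron oxidase, was lowest at -0.83 and -0.81. ZRT1, the high-affinity zinc transporter, was at -1.10 and -0.85 in the copper and zinc list. Among a-specific and mating-type genes MFA2, which encodes a-factor, was at 1.36 and 1.15, while HO, the mating-type switching endonuclease, was at -1.59 and -1.64 (-2.51 with the scanner's log ratios), STE6, the a-factor exporter, was at -0.71 and -0.84 and STE2, a receptor gene, fell by 0.52. Sulfate assimilation and methionine genes had 14 of 34 risen and 11 fallen, with MET14 at 1.66 and 1.39 and the regulator MET28 at 1.21 and 1.26.

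Of 32 protein kinase A, TOR and Snf1 genes 18 fell and 11 rose, with a median of -0.13, or -0.05 relative to genes of like length. RAS1 was at -0.66 and -0.90, the phosphatase SIT4 at -0.81 and -0.42 and TOR1 at -0.63 and -0.58, while PDE1, which breaks down cyclic AMP, rose by 0.78 and RIM15, a kinase of entry into stationary phase, by 0.56. Among transcription factors RAP1, the activator of ribosomal protein genes, fell by 0.86 and USV1 rose by 1.11.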
